A study of Mus musculus with 2 samples.

Results

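The clustered protocadherins are cell-surface adhesion proteins that neurons use to tell their own branches from those of other cells. Their genes stand side by side on mouse chromosome 18 in the order alpha, beta and gamma. In the alpha and gamma clusters each variable first exon has its own promoter and is spliced to constant exons shared by the whole cluster, while each beta gene is complete in itself. A neuron transcribes a small and largely random choice of the alpha, beta, gamma A and gamma B genes, a choice linked to the factor CTCF and the cohesin ring, and to DNA methylation that keeps unchosen promoters shut. The C-type genes at the ends of the alpha and gamma rows (Pcdhac1, Pcdhac2, Pcdhgc3, Pcdhgc4 and Pcdhgc5) are not chosen in this random way.

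All protein-coding genes of the mouse annotation (GENCODE, mm10) on chromosome 18 whose symbol starts with Pcdha, Pcdhb or Pcdhg were taken, with each annotated start site counted apart. This gave 57 of 21938 protein-coding genes, with 72 transcription start sites (TSSs). They comprised 12 alpha variable genes, 22 beta genes, 12 gamma A genes, 6 gamma B genes and the 5 C-type genes. One alpha gene carries the symbol Pcdha11 a second time in GENCODE and is called Pcdha10 here, as in RefSeq. Pcdhgb8, annotated as a polymorphic pseudogene, and the read-through coding models Gm42416, Gm37013 and Gm37388, which span the region, were not counted as members. The DNA between the members, from the first alpha start site to the end of the gamma constant exons, was described as well.

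The chromatin was measured by DNase-seq, which cuts open DNA with DNase I and sequences the cut ends. The muscle was the gastrocnemius of the calf, taken at 14 days of age from females of the strain B6CASTF1/J, the first-generation offspring of C57BL/6J and CAST parents. The samples were 2 biological replicates of 1 group, labelled as separate biosamples under 1 donor record, and the label of each names 3 females, read here as a pool. There was no control group, so every comparison below is between genes or between the replicates. The tissue was not sorted, and fewer open cells of a type cannot be told apart from weaker opening in every cell. Positions in the deposited files are those of mm10, which represents C57BL/6J, and any effect on members whose CAST sequence differs was not tested.

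Each library came with a strict and a permissive peak list, a list of footprints (short stretches protected from the enzyme inside open DNA) and a file of false discovery rates for the cut rate at single bases. The strict lists held 87558 and 79562 peaks in replicates 1 and 2, with a median signal of 1.53 in both. The permissive lists held 142031 and 133321 peaks, and the footprint lists 338694 and 301069 footprints. Peak signals are the authors' values, and how they were scaled is not stated. The label of replicate 2 names 2 sequencing instruments and that of replicate 1 names none, so instrument and replicate cannot be told apart. A promoter site was a peak with its midpoint within 1000 bp of a TSS, and a shared site held a peak of each replicate. The muscle label was borne out by the marker genes: 7 of 7 muscle fibre markers had a shared strict promoter site, among them Ckm, creatine kinase of muscle, at 13.1 and 8.99. Of the markers of other cell types, shared strict sites were found at 5 of 7 neuron, 5 of 7 Schwann cell, 4 of 5 satellite cell, 5 of 5 fibroblast and 4 of 6 endothelial markers, shares to be read beside the 62.6% of all genes that had such a site. Among the neuron markers Snap25 was highest at 4.33 and 3.55. Rbfox3 stood at 2.95 and 2.39, near a later one of its 7 annotated TSSs and not at its gene start. Eno2 stood at 2.18 and 2.08, Tubb3 at 1.27 and 0.884, and Syt1 at 0.431 and 0.705. Nefl had peaks in the permissive lists only and Stmn2 had no peak in either list. The part of nerve in the values below was not tested.

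Most promoters of the clusters had no listed peak in this muscle, which cannot separate a shut promoter from one open in very few cells. Only 5 of the 57 genes had a shared strict promoter site (8.77%, 95% Wilson interval 3.81 to 18.9%), against 62.6% of all protein-coding genes. Of these 5 genes, 4 were C-type (Pcdhac1, Pcdhac2, Pcdhgc3 and Pcdhgc4) and 1 was gamma B (Pcdhgb4). By class, sites were found at 0 of 12 alpha variable, 0 of 22 beta, 0 of 12 gamma A, 1 of 6 gamma B and 4 of 5 C-type genes. For the 52 variable genes together the share was 1.92% (0.340 to 10.1%). A count of 0 still allows, by the Wilson interval, up to 24.2% of 12 genes and 14.9% of 22. These intervals cover counting error over genes only, and the classes were small.

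Each library alone gave a similar picture. Replicate 1 had a strict promoter peak at 6 of 57 members, against 64.3% of all genes, and replicate 2 at 8 of 57, against 63.7%. In either library it was 9 of 57, against 65.3%. The permissive lists added further peaks: 9 of 57 members (15.8%, 8.54 to 27.4%) then had a shared site, against 67.0% of all genes. The added shared sites, at Pcdhb15, Pcdhgb5, Pcdhgb6 and Pcdhga12, had mean signals of 0.665 to 1.18. These were above the 0.585 of Pcdhac2, which had a shared site in the strict lists. Replicate 1 alone had a permissive promoter peak at 11 members, against 69.2% of all genes, and replicate 2 at 15, against 68.8%. With a permissive peak in either replicate the count was 17 of 57, against 70.8%, which leaves 40 members with no promoter peak in any list. These 40 were 11 alpha variable, 17 beta, 9 gamma A, 2 gamma B and 1 C-type gene. The clusters therefore ranged from classes with almost no peak to the C-type class with a peak at all but 1 gene.

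**Figure D1:**
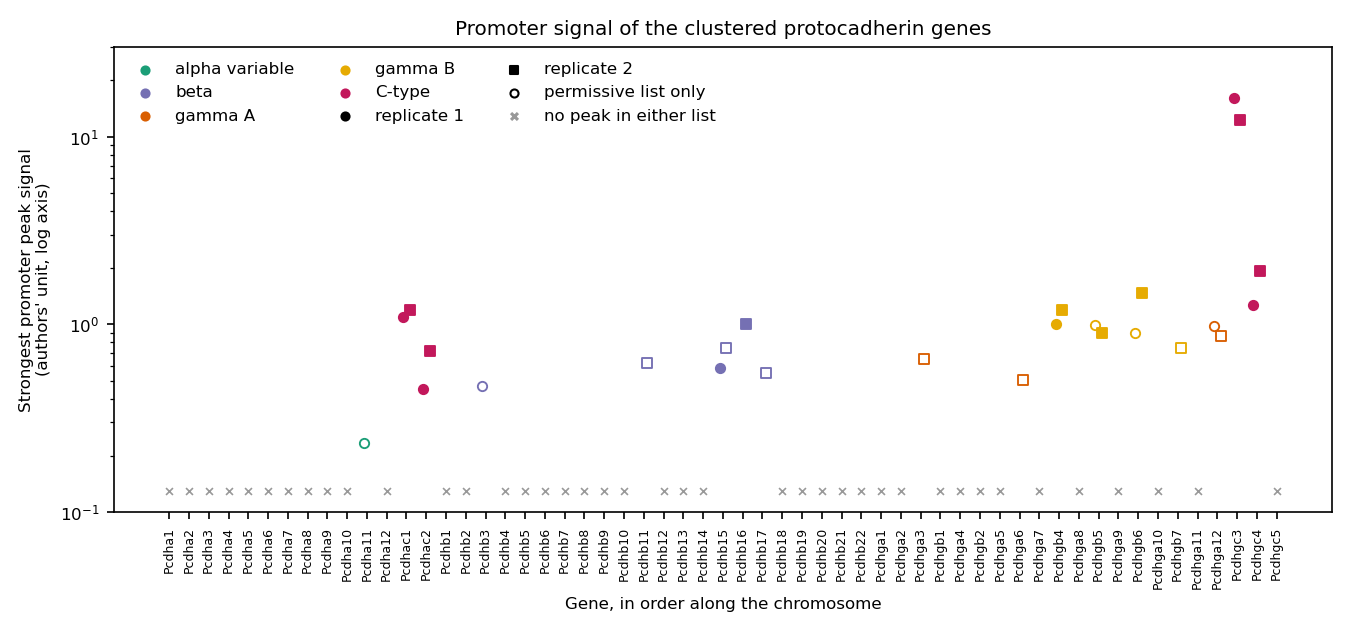
Strongest promoter peak signal of each of the 57 genes (authors' unit, log axis), in order along the chromosome. Circles are replicate 1 and squares replicate 2, filled where the peak is in the strict list and open where it is in the permissive list only, with colours for the classes; where a gene has a strict peak, that value is drawn, and crosses mark the 40 genes with no peak in either list. Pcdhgc3, at 16.0 and 12.2, stands above every other member, all of which lie below 2.

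Pcdhgc3, the gamma C-type gene known to be active in many cell types outside the nervous system, had the strongest promoter. Its site at chr18:37806201-37806420 reached 16.0 in replicate 1 and 12.2 in replicate 2 (mean signal 14.1 ± 2.70, SD, n = 2), with its midpoint at -99.5 bp from the start of its coding transcript at 37806410. In replicate 1 this was above 80.8% of all genes with a strict promoter peak, and in replicate 2 above 75.5%, where the median gene stood at 7.73 and 7.09. Both replicates were thus high, and their gap was small beside the distance to any other member. The site lies in an exon of the non-coding transcript BC037039. A second shared site, at chr18:37806971-37807234 in the coding part of the first exon, had signals of 1.62 and 2.07. The window held 13 footprints in replicate 1 and 12 in replicate 2, of which 9 were found in both. The smallest false discovery rate of the cut rate there was 6.75e-57 and 7.03e-32.

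Pcdhgc4, whose protein is needed for the survival of certain neurons, came next with 1.26 and 1.93 (mean 1.60 ± 0.469, SD, n = 2). This site, chr18:37815873-37816018, did not lie at a TSS but 544.5 bp after one, in the coding part of the first exon. At that TSS itself only the permissive lists had a peak, with signals of 0.940 and 1.28. Replicate 1 alone had a further permissive peak of 1.47 before the gene start, the highest value at this gene in that library. The strict signal was above 9.27% of open promoters in replicate 1 and above 15.6% in replicate 2. The gene's window held 8 and 5 footprints, 1 of them in both replicates.

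At Pcdhac1, the first alpha C-type gene, the shared site chr18:37089901-37090060 had signals of 1.10 and 1.20 (mean 1.15 ± 0.0717, SD, n = 2). Its midpoint lay at -32.5 bp from the TSS, and the edges were identical in both replicates. The smallest false discovery rates, 1.89e-13 and 2.04e-08, were lower than those of every other member but Pcdhgc3 in replicate 1, and than every other member but Pcdhgc3 and Pcdhac2 in replicate 2. The window held 2 and 3 footprints, with 2 in both.

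Pcdhac2, which the serotonin neurons need to space their axons, had the weakest of the shared promoters. Its signals were 0.452 and 0.718 (mean 0.585 ± 0.188, SD, n = 2), above 0.518% and 2.50% of open promoters. In replicate 1 the open DNA was broken into narrow peaks of 126 and 223 bp, while in replicate 2 the first peak alone ran over 540 bp. The merged sites, chr18:37143521-37144060 and chr18:37144101-37144523, cover the untranslated start and the coding part of the first exon. Footprints were listed in replicate 2 alone, 3 against 0 in replicate 1. Strict promoter peaks of the other 4 genes with a shared site were at most 220 bp wide.

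Pcdhgc5, the last gene of the gamma row, was the C-type gene with no peak in any list, no footprint and no base with a false discovery rate below 0.05 in its promoter window. Its 3 annotated TSSs were all without a peak. The ratio of observed to expected CpG around its gene start was 0.233, against 0.564 to 0.797 at the other C-type genes. Depth cannot separate a shut promoter from one open in very few cells, so the level at Pcdhgc5 was not detectable at this depth.

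Gamma B genes were the variable class with most signs of opening. Pcdhgb4, the 1 variable gene with a shared strict site, had signals of 1.00 and 1.20 (mean 1.10 ± 0.137, SD, n = 2) at chr18:37720281-37720420, with the midpoint at -18.5 bp from its TSS. Pcdhgb6 had 1.46 in the strict list of replicate 2 and 0.897 in the permissive list of replicate 1. Pcdhgb5 had 0.897 in the strict list of replicate 2 and 0.989 in the permissive list of replicate 1. The strict threshold thus separated values of Pcdhgb5 that hardly differed, and its lower value was the one that passed.

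These 3 gamma B genes carried footprints in both replicates: 2 and 2 at Pcdhgb4, 3 and 3 at Pcdhgb5, and 2 and 3 at Pcdhgb6. Pcdhgb7 had a permissive peak of 0.751 and 1 footprint, both in replicate 2 alone. Pcdhgb1 and Pcdhgb2 had none. The gamma B genes with peaks thus lay together in the later part of the row, while the first ones were without. Their sequences were also less distinct: 81.3% to 90.0% of the 32-base words around Pcdhgb4, Pcdhgb5, Pcdhgb6 and Pcdhgb7 occur once in the genome, against 100% at Pcdhgb1 and Pcdhgb2. Whether reads shared between near-identical copies took part in these peaks was not tested.

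The 12 gamma A genes, which alternate with the gamma B genes along the chromosome, had no strict peak in either replicate. Pcdhga12, the last of them, had permissive peaks of 0.975 and 0.871 in both replicates, centred 335.5 bp after the TSS in the untranslated first exon. Pcdhga3 had a peak of 0.651 and Pcdhga6 one of 0.505, each in the permissive list of replicate 2 alone. Footprints were listed at Pcdhga12 (3 and 1) and, in replicate 2, at Pcdhga3 (1). The other 9 gamma A genes had neither peaks nor footprints.

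Beta genes, the largest class, had no promoter peak with few exceptions. Pcdhb15 had a strict peak of 0.586 in replicate 1 and a permissive peak of 0.744 in replicate 2. Pcdhb16, its neighbour on the chromosome, had a strict peak of 1.00 in replicate 2 and none in any list of replicate 1. These were the only beta genes in a strict list, each in 1 library. Permissive peaks stood at Pcdhb3 (0.466, replicate 1), Pcdhb11 (0.625, replicate 2) and Pcdhb17 (0.552, replicate 2). Footprints followed the same pattern, with 4 and 1 at Pcdhb15, 0 and 4 at Pcdhb16, 1 in replicate 1 at Pcdhb3, and 2 each in replicate 2 at Pcdhb11 and Pcdhb17. The remaining 17 beta genes had no peak.

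Of the 12 alpha variable genes, 1 had a promoter peak. Pcdha11 had a permissive peak of 0.233, 54 bp wide, in replicate 1, which lay 360.5 bp after a later one of its 3 annotated TSSs. This was the lowest value among the members with a peak, and replicate 2 had none. No alpha variable gene had a footprint in either replicate. The stretch of 160 kb from before Pcdha1 to Pcdhac1 held no strict peak in either library.

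Footprints and cut rates come from the same cuts as the peaks. A footprint in either replicate was found at 15 of 57 members (26.3%, 16.6 to 39.0%), against 69.4% of all genes, and all 15 also had a permissive promoter peak. In replicate 1 alone it was 9 members, against 67.6%, and in replicate 2 it was 14, against 67.4%. By class, a footprint in either replicate was listed at 0 of 12 alpha variable, 5 of 22 beta, 2 of 12 gamma A, 4 of 6 gamma B and 4 of 5 C-type genes. A footprint that overlapped between the replicates was found at 8 members (14.0%, 7.29 to 25.3%), against 63.4% of all genes.

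A base with a false discovery rate below 0.05 in both replicates was found at 11 of 57 members (19.3%, 11.1 to 31.3%), against 68.1% of all genes. Below 0.01 the count was 8 of 57, against 65.7%, and below 0.001 it was 5 of 57, against 63.3%. Those 5 were Pcdhgc3, Pcdhac1, Pcdhac2, Pcdhgb4 and Pcdhgc4, the genes that also had a shared strict peak, from the same cut data. At Pcdhgb5 the rates were 0.00392 and 8.45e-05, at Pcdhgb6 0.00719 and 2.89e-06, and at Pcdhb15 6.55e-04 and 0.00227. Pcdhga12, Pcdhb6 and Pcdhga3 were the last of the 11, with rates between 0.00378 and 0.0496. Among the alpha variable genes Pcdha8 reached 0.0225 and Pcdha11 0.0466 in replicate 1, and none was listed in replicate 2. Bases below 0.05 in at least 1 replicate without a promoter peak in any list were found at Pcdha8, Pcdhb6, Pcdhb21, Pcdhga1 and Pcdhga8.

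The low share of open promoters was also set beside promoter composition. In mammals, promoters rich in CpG are mostly open in all tissues, and the same held here: a shared strict site was found at 599 of 4992 genes with an observed over expected CpG ratio below 0.2 and at 4313 of 4469 (96.5%) of those at 0.8 and over. The 57 members had a median ratio of 0.564, close to the 0.552 of all genes, and a lower median GC content (44.9% against 54.7%). Between 0.6 and 0.8, where 91.7% of all genes had a shared site, 4 of 21 members did. Between 0.4 and 0.6 the values were 74.2% of all genes and 1 of 21 members. Between 0.2 and 0.4 they were 36.7% of all genes and 0 of 13 members. The members were thus below all genes of like CpG ratio in each of the 3 classes that held 13 or more of them.

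**Figure D2:**
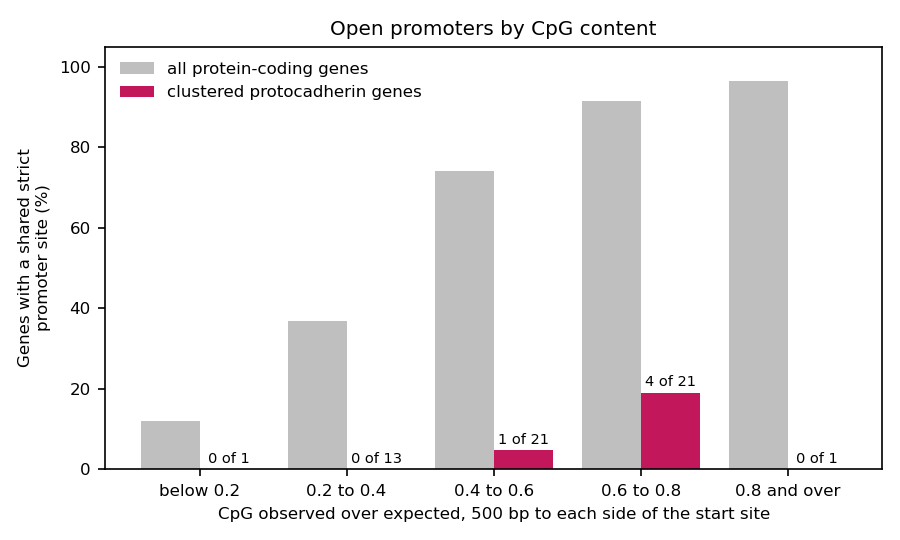
Share of genes with a shared strict promoter site (percent) by the ratio of observed to expected CpG within 500 bp of the start site. Grey bars are all 21938 protein-coding genes and coloured bars the 57 clustered protocadherin genes, with their counts above; for all genes the share rises to 96.5% in the last class, while among members it is highest in the class from 0.6 to 0.8, at 4 of 21.

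Ordered by median CpG ratio, the classes did not fall in the order of their openness. Alpha variable promoters had a median CpG ratio of 0.684 and no shared site, while C-type promoters had 0.670 and sites at 4 of 5. Gamma B had 0.650, gamma A 0.588 and beta 0.378. C-type promoters were richest in GC, with a median of 55.8%, followed by gamma B (47.5%), gamma A (46.2%), alpha variable (45.1%) and beta (41.3%). By median GC, the classes with a shared site, C-type and gamma B, thus came first. The part of composition in openness was not tested. The share of 32-base words that occur once in the genome, within 1000 bp of the start, had a median of 88.6% for alpha variable, 99.6% for beta, 97.7% for gamma A, 89.3% for gamma B and 100% for C-type genes. The lowest single value was 73.7%, at Pcdha7. Single beta promoters ranged from 78.6% to 100% and gamma A promoters from 88.6% to 99.9%. The part of uniqueness in the peak counts was not tested.

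Variable promoters of these clusters are known for a conserved element shared within a class, to which CTCF can bind. After the promoter sequences had been read, 1 word was picked for each class and sought on both strands from 400 bp before to 100 bp after the gene start. The word TGTCGCT was found at 11 of 12 alpha variable genes, against 3.22% of all promoters in the same window, with a median position of -89 bp from the start. GTGGCGCT was found at 17 of 22 beta genes, against 2.09%, at a median of -53 bp. CGCTGTT was found at 11 of 12 gamma A genes, against 3.34%, and the shorter CGCTGT, which it contains, at 6 of 6 gamma B genes, against 15.7%. Because the words were chosen from these same promoters, the counts describe them and carry no weight beyond that. Within its own class each word stood on the strand of the gene.

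Except in gamma B, these words mostly lay outside the permissive peaks, at promoters that mostly had no peak at all. None of the 11 alpha variable and none of the 11 gamma A genes with the class word had it in a permissive peak of either replicate. Among the 17 beta genes with the word, 3 had it in a permissive peak, namely Pcdhb3, Pcdhb11 and Pcdhb15, and there too it was in a footprint, in replicate 1 at Pcdhb3, in replicate 2 at Pcdhb11 and in both at Pcdhb15. Among the 6 gamma B genes, 3 had it in a permissive peak and also in a footprint, namely Pcdhgb4, Pcdhgb5 and Pcdhgb6. The footprint was in both replicates at Pcdhgb4 and Pcdhgb6 and in replicate 1 alone at Pcdhgb5. The peak thus covered the class word in these 6 genes. At Pcdhga3 the word lay just before the peak of 40 bp, and Pcdhb16, whose peak lay close to its start, did not hold the word in the window searched.

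**Figure D3:**
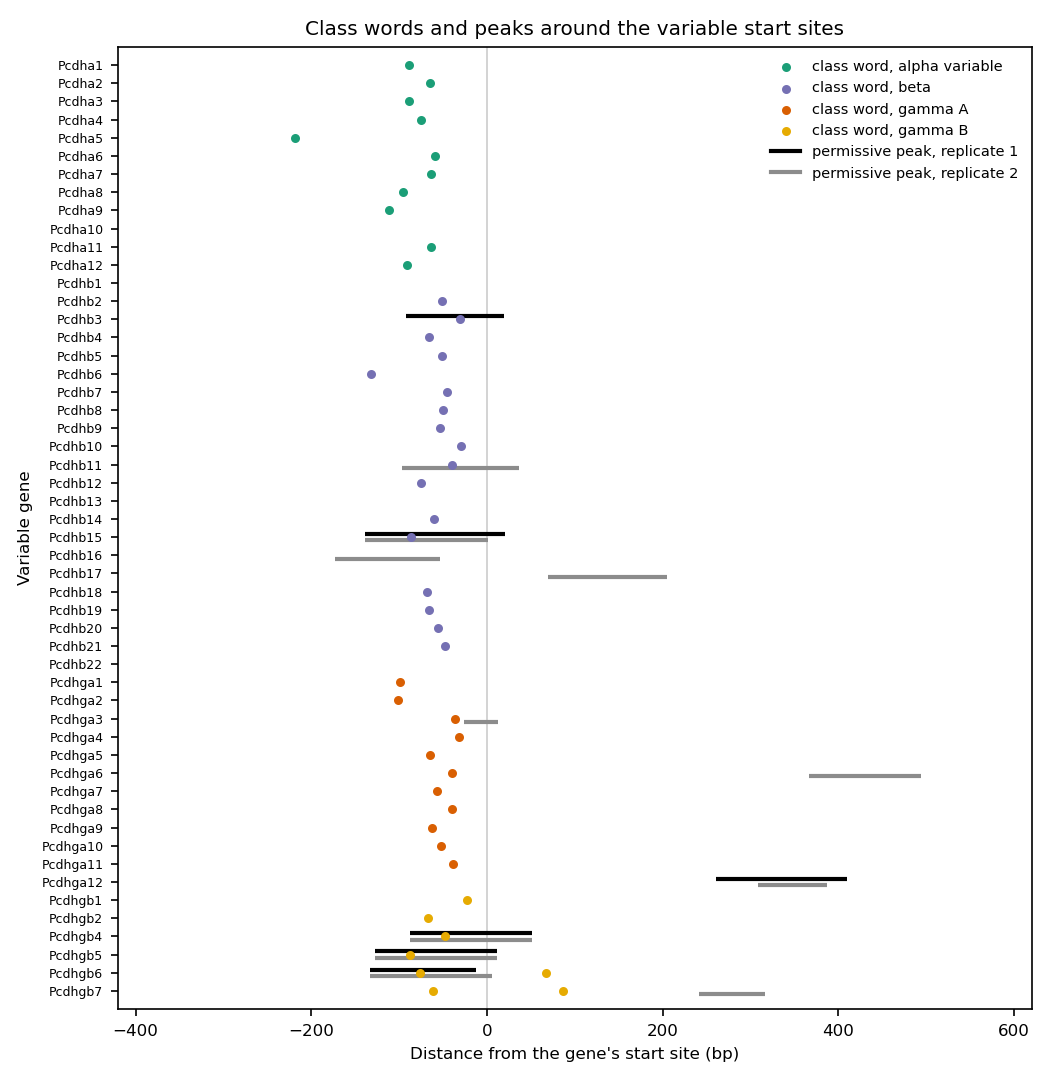
Position of the class word (coloured dots, first base) and of permissive peaks (black bars replicate 1, grey bars replicate 2) around the gene start of each alpha variable, beta, gamma A and gamma B gene, in bp; the permissive peak at a later start site of Pcdha11 lies outside the plotted range. Most dots lie within 200 bp before the start with no bar over them, and bars cover a dot at Pcdhb3, Pcdhb11, Pcdhb15, Pcdhgb4, Pcdhgb5 and Pcdhgb6.

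An extended CTCF word, which ends in GGCGCT, was sought on both strands within 500 bp of every annotated TSS of a gene. Genes with more TSSs thus had more DNA searched, here and for the other words below. It was present at 5 of 57 members (8.77%) and at 7.62% of all genes. At Pcdhac1 its centre lay at -62.5 bp from the TSS, inside the strict peak and a footprint of both replicates. At Pcdhb15 it lay at -83.5 bp inside the permissive peak and a footprint of both replicates. That match covers the same bases as the beta class word there and is no separate observation. At Pcdhb16 the extended word lay at -77.5 bp inside the peak and a footprint of replicate 2. At Pcdhac2 the extended word lay in the strict peaks of both replicates but in no footprint, 153.5 bp after the TSS. Pcdhb10 had the word 187.5 bp after the TSS and no peak. Pcdhb15 and Pcdhb16, the only beta genes in a strict list and each in 1 library, were thus 2 of the 3 beta genes with this word. At Pcdhb10 the word stood on the opposite strand. Whether the word and these peaks are linked was not tested.

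Of the other words sought, the CTCF core consensus was found at 1 member, Pcdha1, and at 328 of all 21938 genes. Within 1000 bp to each side it was found at 6 of 57 members (10.5%), all among the 12 alpha variable genes, against 2.41% of all genes. The REST word, bound by a repressor of neuronal genes, was found at 0 of 57 members and at 0.242% of all genes. The E-box CAGCTG, a word of muscle and neuronal regulators, was found at 16 of 57 members (28.1%) and at 54.3% of all genes. The SP/KLF box GGCGGG was found at 18 members (31.6%) and at 66.3% of all genes, with 9 of the 18 among the 12 alpha variable genes. A match is a description of these letters and not evidence of binding.

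Between and behind the genes the clusters held further open sites. From the first alpha start site to the end of the gamma constant exons (chr18:36930184-37841873) there were 13 shared strict sites, 7 in member promoters and 6 elsewhere. The density was 14.2 sites per Mb, counted from 1000 bp before the first start, against 23.9 on chromosome 18 and 25.1 in the genome. The sites were unevenly spread. The alpha variable stretch of 160 kb and the beta stretch of 261 kb held 0, the gamma A and B stretch of 145 kb held 1, and the 36.5 kb from Pcdhgc3 to the end of the gamma constant exons held 5, or 137 per Mb. The 45.2 kb from Pcdhac2 to the end of the alpha constant exons held 3, or 66.4 per Mb.

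**Figure D4:**
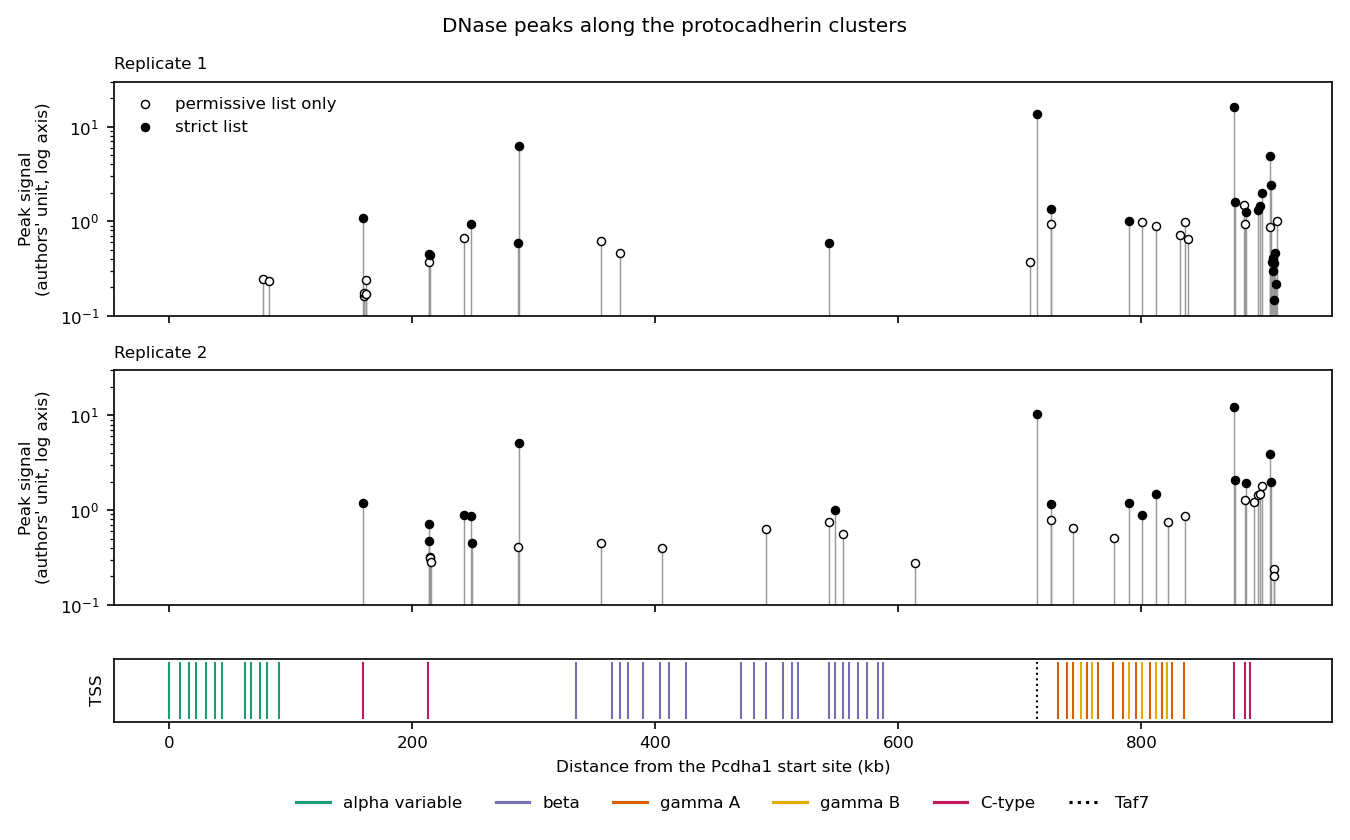
Peaks along the protocadherin clusters in replicate 1 (top) and replicate 2 (middle), as peak signal (authors' unit, log axis) against distance from the Pcdha1 start site (kb); filled points are strict peaks and open points are in the permissive list only. The bottom row marks the gene starts by class and that of Taf7. Peaks gather at the C-type genes and behind them, with the highest points at Pcdhgc3 and Taf7 and long stretches without strict peaks over the alpha variable and beta genes.

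The strongest site away from a member was the promoter of Taf7, a gene for a subunit of the general transcription factor TFIID, which lies between the beta and gamma genes. This site, chr18:37644141-37644320, had signals of 13.5 and 10.4 (mean 11.96 ± 2.14, SD, n = 2). A gene with a strong promoter thus stood 17.6 kb before Pcdhga1, whose own promoter had no peak. In the same stretch a site at chr18:37655529-37655712, in an exon of the long non-coding RNA 3222401L13Rik and 6.17 kb before Pcdhga1, had signals of 1.34 and 1.16.

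The strongest site that was neither a member promoter nor that of another coding gene lay between the alpha constant exons and Pcdhb1. At chr18:37218281-37218460 it had signals of 6.21 and 5.07 (mean 5.64 ± 0.805, SD, n = 2), above 87.9% and 85.3% of all strict peaks, and it held 4 footprints in each replicate. It was 46.6 kb before Pcdhb1, in introns of the read-through models alone. Enhancers of the alpha genes are known in the DNA within and behind the alpha constant exons. Inside the alpha intron a weaker site at chr18:37178421-37178640, 35.0 kb after the Pcdhac2 TSS, had signals of 0.926 and 0.857.

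In the gamma cluster, 2 sites lay in intron sequence behind Pcdhgc5, before the end of the constant exons. The site at chr18:37835481-37835800, 16.1 kb after the Pcdhgc5 TSS, had signals of 4.93 and 3.94 (mean 4.43 ± 0.705, SD, n = 2), with 7 and 5 footprints. The site at chr18:37836721-37836920 had 2.41 and 1.97 and held an E-box match, a word found in 25.3% of all shared strict sites. Both had a strict peak in each replicate, although the nearest promoter, that of Pcdhgc5, had no peak. None of the 6 sites away from members held the extended CTCF word, which was found in 4.13% of all shared strict sites.

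The permissive lists gave 26 shared sites in the clusters, 15 of them away from member promoters. The 3 strongest of those not shared in the strict lists lay behind Pcdhgc5, before the end of the gamma constant exons. They stood at chr18:37829521-37829683 (2.01 and 1.77), chr18:37827944-37828140 (1.45 and 1.46) and chr18:37826270-37826483 (1.31 and 1.45). Each was in the strict list of replicate 1 alone, although its signals were alike in both libraries. Others stood at chr18:37655781-37655974 beside the non-coding RNA (0.947 and 0.784), at chr18:37172301-37172460 in an exon of the non-coding transcript Gm38097 behind Pcdhac2 (0.671 and 0.884), at chr18:37285641-37285805, 9.09 kb before Pcdhb2 (0.615 and 0.452), and at chr18:37217201-37217557 close to the strong intergenic site (0.586 and 0.405). The remaining ones, near the end of the gamma constant exons, were at 0.360 and 0.239 and at 0.148 and 0.199.

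One stretch differed between the libraries. Replicate 1 had a run of 7 strict peaks from 37837921 to 37840640, with signals from 0.148 to 0.466, which is above at most 3.34% of its strict peaks. Replicate 2 had none there in the strict list and 2 in the permissive list, at 0.199 and 0.239. With this run, replicate 1 had 25 strict peaks in the clusters, and replicate 2 had 18. Where the run came from was not tested.

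Elsewhere the replicates ranked the sites alike. Over the 13 shared strict sites the log2 signals had a Spearman rho of 0.960 and a Pearson r of 0.984, which describes sites that share libraries and is no test. The median log2 ratio of replicate 2 to replicate 1 was -0.11, close to the -0.14 of all 68349 shared sites in the genome, and 6 of the 13 were higher in replicate 2. The 6 sites away from members were all lower in replicate 2, with a median of -0.29. In the genome, 20952 of the 68349 shared sites were higher in replicate 2, so most sites were not higher there. The signal thus put Pcdhgc3, Taf7, the intergenic site and the first gamma intron site at the top in both libraries.

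Genes that surround or regulate the clusters mostly had a shared strict promoter site, unlike the variable genes. Among the neighbours, Zmat2, a zinc finger gene before the alpha cluster, stood at 17.1 and 13.9. Diaph1, a formin that shapes actin, stood at 18.7 and 14.8 behind the gamma cluster, followed by the histone deacetylase gene Hdac3 at 12.7 and 13.0. Slc25a2, a mitochondrial carrier gene between the beta and gamma clusters, had no strict peak and a permissive peak of 0.374 in replicate 1. Of 12 protocadherin genes outside the clusters, 11 had a shared strict promoter site, against 62.6% of all protein-coding genes. The highest were Pcdh17 at 9.52 and 8.15, Pcdh10 at 8.13 and 8.95, and Pcdh18 at 7.79 and 7.11. Pcdh15 had no peak in either list.

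All 13 known regulators of the clusters that were listed had a shared strict promoter site, against 62.6% of all protein-coding genes. The highest were the cohesin subunit genes Smc3, at 24.3 and 19.5, and Stag1, at 22.8 and 20.7, and the cohesin release factor gene Wapl, at 17.0 and 15.3. Ctcf stood at 12.4 and 10.4, and Smchd1, whose protein helps to silence the clusters, at 13.0 and 11.7. Dnmt3b, the methyltransferase that acts on unchosen protocadherin promoters, was the lowest of the list at 1.98 and 1.95. An open promoter does not give the amount of the protein, and RNA was not analysed here.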

How the data were processed

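DNase-seq files of 2 replicates of 1 group were used, all on mm10 per the labels. The deposited peak lists give the authors' signal per peak, and these signals came in whole steps (100% of values within 0.05 of a step in each library), with 142 steps per unit in replicate 1 and 150 in replicate 2. The deposited per-base files give q-values (false discovery rates) below 0.05 as the authors listed them, and the footprint lists carry a level of 0.01 and no score. Of the aligner, the peak and footprint callers and the depth in reads, each was not given in the sources used here. In each library, the list with fewer peaks was called strict. Peaks were not pooled over replicates, and peaks overlapping by at least 1 bp were merged into shared sites.

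Genes came from GENCODE and sequence from the RefSeq copy of the same assembly (GRCm38). Shares, medians, word matches and 32-base uniqueness were computed with Python 3.11.15, numpy 2.4.6 and numba 0.67.0, with Wilson 95% intervals from scipy 1.17.1, and the counting of promoter sites was tested on simulated peaks. With 1 group of 2 libraries, whose labels do not say that the animals were unrelated, no test was run. The members, the gene lists, the words and the rule for naming were chosen with earlier results of these data known. By that rule every member with a promoter peak in any list is named, the others are given by class, every shared site away from members is described, and of the other protocadherins and regulators the 3 highest are named. Alternatives were the permissive list, stronger peaks, reciprocal overlap, other windows, gene starts alone, other thresholds and words, and each replicate alone.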

Additional observations from a re-analysis of the deposited data

How the results depend on the processing

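The finding that few members had a shared strict promoter site held under every alternative run, with counts from 1 to 9 of 57. Against 5 members in the main count, the permissive list gave 9 (67.0% of all genes), 50% reciprocal overlap 3 (61.2%) and the stronger 50% of peaks 1 (55.6%), and single replicates gave 6 to 8. For alpha genes (2) reciprocal overlap gave 1 and the stronger peaks 0. For beta genes (0) the permissive list gave 1 and each replicate alone 1, at Pcdhb15 in replicate 1 and Pcdhb16 in replicate 2. For gamma genes (3) the permissive list gave 6, the stronger peaks 1 and single replicates 3 to 5. For C-type genes (4) reciprocal overlap gave 2 and the stronger peaks 1, Pcdhgc3. Sites away from members (6) numbered 15 in the permissive list and 8 to 17 in single replicates, and sites per Mb (14.2) were 28.5 with the permissive list (38.3 in the genome), 6.57 with the stronger peaks (13.7) and 19.7 to 27.4 in single replicates (29.2 without replicate 1 and 32.1 without replicate 2). Members with a footprint (15) numbered 8 when both replicates were required (63.4% of all genes) and 9 to 14 in single replicates. Members with a base below 0.05 (11) numbered 5 below 0.001 (63.3% of all genes). In single replicates they numbered 15 in replicate 1 (70.1% of all genes) and 18 in replicate 2 (69.9%). The extended CTCF word (5 members) gave 1 with the core alone and 3 from 250 bp before to 50 bp after the TSS. The causes were not tested. For the 5 genes with a shared strict site, 24 signal values were read under another list, window or start rule. All stayed within 1 SD, but the rules mostly picked the same deposited peaks, so this could not show robustness. Only Pcdhgc4 with the permissive list changed, to 1.70 from 1.60, and it had no value with a 500 bp window. The permissive list, added after seeing the data as a setting for replicate agreement, gave a Spearman rho of 0.920. The effect of depth on the weak promoters was not tested, since read totals are not given here. Pcdhb15, Pcdhb16, Pcdhgb5 and Pcdhgb6, with strict signals of 0.586 to 1.46, were in the strict list of 1 library and not of the other. No paired analysis was possible because there is only 1 group.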

Other observations

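Beyond the gamma constant exons, the next 60 kb, in introns of Diaph1, held 4 shared strict sites. The site at chr18:37852241-37852420, 32.8 kb after the Pcdhgc5 TSS, had signals of 16.4 and 13.1 (mean 14.7 ± 2.37, SD, n = 2), as high as the Pcdhgc3 promoter at 16.0 and 12.2 within the spread of the replicates. It held 1 match of the extended CTCF word, found in 4.13% of all shared strict sites, and 1 E-box match, found in 25.3%. Each match lay inside a footprint of both replicates, and the site held no match of the CTCF core. The others stood at chr18:37883561-37883720 with 9.16 and 8.25, at chr18:37880221-37880440 with 5.25 and 5.03, and at chr18:37877441-37877600 with 2.66 and 1.92, and none of these held the extended CTCF word. Regulatory DNA of the beta and gamma genes is known behind the gamma cluster, and whether these sites belong to it was not tested.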
